A study of Mus musculus and Rattus norvegicus with 96 samples.

Results

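Genes of the vessel wall and of stellate cells were followed through 4 ways of preserving the same mouse livers. The set held 10 genes, Eln, Myh11, Acta2, Tagln, Col1a1, Col1a2, Col3a1, Des, Dcn and Lrat, of 24543 in the count table, and all 10 were among the 13370 genes kept for testing. The members were chosen from the readout of these libraries. Eln and Myh11 entered because their levels differed between liver fixed fresh and liver frozen before fixation, and the other 8 are genes of the same or adjoining cells. Values that compare fresh-fixed liver with the frozen preparations are therefore descriptions of the members, with no test, and so are Eln and Myh11 wherever FR>FFPE is compared with another preparation. The question was whether that difference goes with the piece of liver that was sampled.

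Livers came from 12 male B6C3F1 mice, 10 to 11 weeks old. For 7 days, 6 mice drank water with 600 ppm phenobarbital (PB), which induces drug metabolism in hepatocytes, and 6 drank vehicle water (Con). One piece of each liver was fixed fresh in 10% neutral buffered formalin for 18 to 24 h and embedded in paraffin (FFPE). Another piece was flash frozen and later divided on dry ice into 3 portions. Of these, 1 remained frozen (FR), 1 was fixed in 70% ethanol and embedded (FR>OH), and 1 was fixed in the same formalin and embedded (FR>FFPE). Each of the 8 groups thus held 6 libraries from 6 mice, 48 in all. Both kinds of sample drew on 3 lobes, the caudate, left lateral and right medial. FFPE was the only preparation made from the unfrozen piece, so the piece and fresh fixation cannot be told apart by design. FR RNA was extracted with RNAzol, and RNA of the 3 embedded preparations came from 10-μm curls with an FFPE kit, so the extraction of FR cannot be told apart from its preservation.

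Vascular smooth muscle cells ring the arteries and portal veins of the liver, and they hold smooth muscle myosin, actin and their binding proteins. Elastin gives the walls of larger vessels their recoil. Hepatic stellate cells lie along the sinusoids, store vitamin A as retinyl esters and, with portal fibroblasts, make most of the collagen and decorin of the liver. Large vessels lie unevenly in a lobe, whereas stellate cells lie throughout it.

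The members differ in base composition, and short stretches of their coding sequence show the range. For each of 6 members the printed 60 bases are the in-frame window whose share of G and C was closest to that of the whole transcript (GENCODE vM21, GRCm38), read 5′ to 3′ on the gene's own strand, with G and C in capitals. Eln and Myh11 are shown because the report turns on them, both type I collagen genes because the ratio of their counts is given, and Dcn and Lrat because they are poorest in G and C among the 10. The Eln window spans exons 19 to 21 (chr5:134716513-134718021, minus strand), the Myh11 window lies in exon 24 (chr16:14218888-14218947, minus), the Col1a1 window spans exons 32 to 33 (chr11:94945862-94946277, plus), the Col1a2 window spans exons 33 to 34 (chr6:4529071-4530180, plus), the Dcn window lies in exon 4 (chr10:97506562-97506621, plus) and the Lrat window in exon 2 (chr3:82897051-82897110, minus).
Eln: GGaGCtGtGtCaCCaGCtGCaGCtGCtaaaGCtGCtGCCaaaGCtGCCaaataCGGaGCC
Myh11: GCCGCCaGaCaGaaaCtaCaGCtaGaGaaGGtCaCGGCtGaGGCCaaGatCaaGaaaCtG
Col1a1: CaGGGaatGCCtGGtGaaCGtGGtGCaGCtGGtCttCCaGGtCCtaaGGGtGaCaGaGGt
Col1a2: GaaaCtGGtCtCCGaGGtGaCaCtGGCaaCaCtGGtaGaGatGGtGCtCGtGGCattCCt
Dcn: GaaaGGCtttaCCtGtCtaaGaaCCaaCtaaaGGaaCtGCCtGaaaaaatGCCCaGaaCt
Lrat: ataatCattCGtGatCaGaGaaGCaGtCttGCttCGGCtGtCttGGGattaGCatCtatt
G and C made up 58.3% of the Eln window and 41.7% of the Dcn window. Over whole transcripts the share was 58.8% for Eln, 58.9% for Col1a1, 55.7% for Col1a2 and 53.4% for Myh11, against 42.4% for Dcn and 42.0% for Lrat. Codons of glycine, alanine and proline open with G or C at both leading bases, and those residues are frequent in elastin and collagen.

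Libraries held 11737338 to 13702672 counts in FR, 8167321 to 11539022 in FR>OH, 5534973 to 10681783 in FR>FFPE and 4952797 to 6760422 in FFPE. The median share of all reads that was counted on genes was 48.1% in FR, 38.6% in FR>OH, 37.3% in FR>FFPE and 25.5% in FFPE. Levels are counts-per-million values (CPM), relative to the library's total count. In bulk tissue, fewer cells of a type and less RNA per cell cannot be told apart. All libraries were liver by the hepatocyte gene Alb, whose mean was 18917 to 44485 CPM over the 4 preparations. The sequencing lane was read from the L number in each library's title, which the labels do not name as a lane. By that reading, libraries of FFPE and FR>FFPE never shared a lane. A lane term could be fitted only through FR libraries that shared lanes with each.

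Eln, the gene of elastin, was scarce in every frozen preparation and higher in fresh-fixed liver. In FR it ranged from 0.246 to 1.70 CPM (median 1.01) in Con mice and from 0.958 to 2.03 (median 1.41) in PB mice. In FR>OH the Con libraries lay between 0.310 and 2.11 CPM (median 1.24) and the PB libraries between 1.14 and 4.30 (median 2.17). These were few reads, with 3 to 24 counts in an FR library and 3 to 40 in an FR>OH library. In FR>FFPE, Eln ranged from 0.622 to 2.90 CPM (median 1.22) in Con mice and from 1.51 to 3.58 (median 2.89) in PB mice. In FFPE it ranged from 1.82 to 6.4 CPM (median 3.38) in Con mice and from 3.70 to 7.47 (median 5.59) in PB mice. FFPE and FR>FFPE did not overlap in PB mice and overlapped in Con mice, where the highest FR>FFPE library, mouse 8D at 2.90 CPM, lay above the 2 lowest FFPE libraries. Mean levels over the 12 mice were 1.21 ± 0.478 CPM in FR, 1.82 ± 1.10 in FR>OH, 2.07 ± 1.03 in FR>FFPE and 4.59 ± 1.73 in FFPE (SD, n = 12).

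Myh11, the smooth muscle myosin heavy chain, was nearly constant in FR and spread widely elsewhere. In FR it ranged from 1.84 to 2.90 CPM (median 2.45) in Con mice and from 2.21 to 2.77 (median 2.41) in PB mice. In FR>OH the Con mice had 1.31 to 4.89 CPM (median 2.48) and the PB mice 1.82 to 8.60 (median 3.55), and in FR>FFPE they had 1.32 to 5.25 (median 2.65) and 2.01 to 6.35 (median 3.55). The 3 preparations of the frozen piece overlapped. In FFPE, Myh11 ranged from 3.94 to 12.2 CPM (median 6.74) in Con mice and from 5.02 to 14.3 (median 6.93) in PB mice. Each FFPE library lay above every FR library of its treatment, whereas FFPE and FR>FFPE overlapped in both treatments. Mean levels were 2.45 ± 0.295 CPM in FR, 3.29 ± 1.98 in FR>OH, 3.34 ± 1.54 in FR>FFPE and 7.94 ± 3.28 in FFPE (SD, n = 12), from 12 to 95 counts per library.

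**Figure D1:**
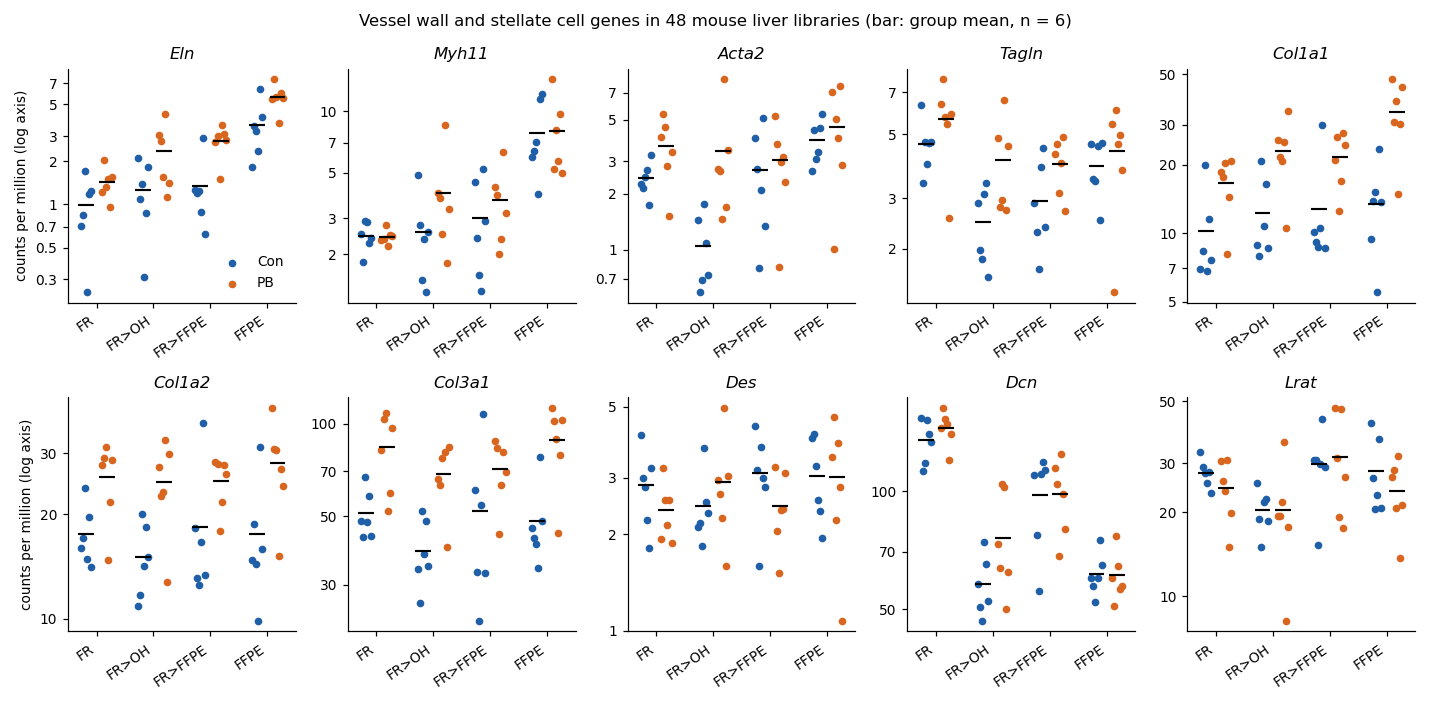
Level of each of the 10 genes (CPM, log axis) in 48 mouse liver libraries by preparation, with vehicle (Con) in blue, phenobarbital (PB) in orange and black bars at the mean of 6 libraries. Eln and Myh11 were highest in FFPE, with means of 4.59 and 7.94 CPM over 12 mice, while Dcn was highest in FR, at 140 CPM.

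Within mice, fresh-fixed liver held more Eln and more Myh11 than the frozen-then-fixed portion in 12 of 12 mice. The log2 ratio of FFPE to FR>FFPE, computed from log2(CPM + 0.5), averaged 1.02 ± 0.51 for Eln and 1.15 ± 0.57 for Myh11 (SD, n = 12 mice). The widest ratios of both genes were in mouse 90C, at 2.02 and 1.90. The narrowest were 0.04 for Eln, in mouse 20D, and 0.37 for Myh11, in mouse 21C. In the fit over all genes the log2 differences were 1.19 (SE 0.24) for Eln and 1.27 (SE 0.23) for Myh11. With all reads of a library as its size, in place of reads counted on genes, they were 0.62 and 0.71, and with a lane term 0.88 and 0.81. No setting tried turned the direction of either gene. Since these values chose the genes, they are given with no test.

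Between FFPE and FR>FFPE the other members did not move with them as a group. Over the 12 mice, Acta2 was higher in FFPE than in FR>FFPE in 9, Tagln in 10, Col1a1 in 8, Col3a1 and Des in 7 each, and Col1a2 in 6. Dcn was lower in FFPE in 11 mice and Lrat in 9. The log2 differences of the fit were 0.59 (SE 0.28) for Acta2, 0.36 (SE 0.23) for Col1a1, 0.28 (SE 0.19) for Tagln, 0.14 (SE 0.19) for Des, 0.10 (SE 0.18) for Col3a1 and 0.05 (SE 0.17) for Col1a2. For Lrat the difference was −0.24 (SE 0.17) and for Dcn −0.67 (SE 0.11). With all reads as the library size Col1a1, Tagln, Des, Col3a1 and Col1a2 turned to lower in FFPE (−0.53 to −0.21), and with the lane term Acta2 was at −0.26. None of the 10 members had groups that were apart in both treatments between FFPE and FR>FFPE, where 1.46% of all genes had. Between FFPE and FR, Eln, Myh11 and Dcn were apart in both treatments, beside 24.9% of all genes, a comparison that shares the FFPE libraries with the choice of members. In FFPE vs FR>OH, which shares them too, Acta2 was at 1.18 (SE 0.30), near Eln at 1.37 and Myh11 at 1.31. The other members there lay between −0.11 (Dcn) and 0.39 (Tagln).

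**Figure D2:**
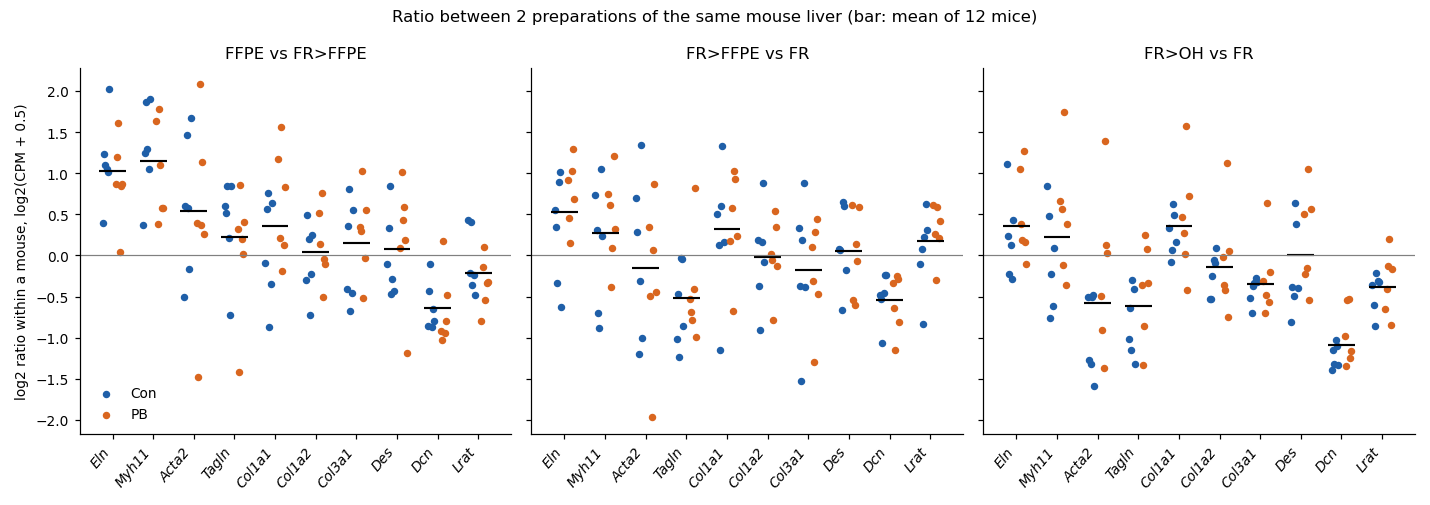
Log2 ratio within a mouse between 2 preparations, from log2(CPM + 0.5), for each gene in FFPE vs FR>FFPE, FR>FFPE vs FR and FR>OH vs FR, with 1 point per mouse (blue Con, orange PB) and a bar at the mean of 12 mice. Eln and Myh11 are above 0 in all 12 mice only in the first panel, and Dcn is below 0 in all 12 in the other panels.

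Acta2 and Tagln code for smooth muscle actin and its binding protein transgelin, which smooth muscle cells make beside Myh11. Acta2 had means of 3.03 ± 1.17 CPM in FR, 2.22 ± 2.11 in FR>OH, 2.86 ± 1.5 in FR>FFPE and 4.25 ± 1.87 in FFPE (SD, n = 12), and its ranges over both treatments overlapped. In Con mice it ranged from 0.593 to 1.76 CPM in FR>OH and from 2.65 to 5.41 in FFPE. In PB mice the ranges were 1.47 to 8.28 and 1.01 to 7.60. Tagln was highest in FR, at 5.13 ± 1.44 CPM, and lay at 3.27 ± 1.42, 3.43 ± 1.05 and 4.13 ± 1.28 in FR>OH, FR>FFPE and FFPE. The 3 contractile genes therefore did not keep 1 ratio over preparations. The ratio of Myh11 to Tagln counts averaged 0.519 ± 0.183 in FR, 1.03 ± 0.418 in FR>OH, 0.986 ± 0.338 in FR>FFPE and 2.12 ± 1.10 in FFPE (SD, n = 12). The ratio of Myh11 to Acta2 averaged 0.918, 1.99, 1.36 and 2.10 in the same order. These ratios hold the FFPE values that chose Myh11 and are descriptions. Per kb of transcript, Tagln stood above Acta2, and Acta2 above Myh11 and Eln, in all 4 preparations, at 2.59, 2.09, 1.23 and 1.19 CPM per kb in FFPE and 3.21, 1.49, 0.380 and 0.313 in FR.

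Type I collagen is built from chains coded by Col1a1 and Col1a2, and type III collagen from Col3a1. Col3a1 was the most abundant of the 3 per kb, at 12.1 CPM per kb in FR and 12.3 in FFPE. Its means were 67.5 ± 24.1, 53.7 ± 20.2, 61.7 ± 25.6 and 68.3 ± 28.7 CPM in FR, FR>OH, FR>FFPE and FFPE (SD, n = 12). Col1a2 was as even, at 21.6 ± 6.37, 19.9 ± 7.36, 21.7 ± 7.65 and 22.8 ± 9.32 CPM. Col1a1 was lowest in FR, at 13.4 ± 5.77 CPM, and lay at 17.6 ± 8.48, 17.2 ± 8.25 and 23.9 ± 14 in the others. The ratio of Col1a1 to Col1a2 counts was 0.601 ± 0.116 in FR, 0.859 ± 0.159 in FR>OH, 0.763 ± 0.138 in FR>FFPE and 0.994 ± 0.336 in FFPE. Col3a1 and Col1a2 differed between preparations by less than the SD over mice, while the mean ratio was higher in each embedded preparation than in FR.

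Dcn codes for decorin, a small proteoglycan that binds collagen fibrils, Lrat for the enzyme that esterifies vitamin A in stellate cells, and Des for desmin, an intermediate filament of muscle and stellate cells. Dcn was the most abundant member per kb in all preparations. In FR it ranged from 113 to 154 CPM (median 137) in Con mice and from 120 to 163 (median 146) in PB mice. In FR>OH the ranges were 46.8 to 74.4 CPM (median 55.4) and 50.2 to 105 (median 68.4). FR and FR>OH did not overlap in either treatment. In FR>FFPE, Dcn ranged from 55.8 to 119 CPM (median 110) in Con mice and from 68.5 to 125 (median 101) in PB mice. In FFPE the ranges were 52.1 to 75.2 CPM (median 60.2) and 51.1 to 77.1 (median 58.7). FFPE lay wholly below FR and overlapped with FR>OH and FR>FFPE. Lrat had means of 26.1 ± 5.02, 20.4 ± 6.47, 30.6 ± 10.7 and 26.0 ± 7.77 CPM in FR, FR>OH, FR>FFPE and FFPE (SD, n = 12). Des stayed between 2.62 ± 0.678 CPM in FR and 3.02 ± 1.04 in FFPE, less than the spread between mice. The stellate cell genes thus gave no common direction over the preparations.

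The 3 preparations of the frozen piece came from portions of the same tissue, so members other than Eln and Myh11 could be tested between them. In FR>FFPE vs FR, 3 of 10 members passed an adjusted p of 0.05 with edgeR's quasi-likelihood test and Benjamini-Hochberg adjustment, where 65.4% of all genes passed. They were Tagln, Dcn and Eln. Tagln fell by 0.58 on the log2 scale (SE 0.18, adjusted p = 0.00376, lower in 11 of 12 mice) and Dcn fell by 0.51 (SE 0.11, adjusted p = 7.29e-05, lower in 12 of 12). Eln was at 0.72 (SE 0.25, higher in 10 of 12 mice) and Myh11 at 0.43 (SE 0.24, higher in 9 of 12). The FR>FFPE values of these 2 genes entered the choice of members, so the count with Eln is no evidence about it. With a lane term 0 of the 10 passed, beside 38.4% of all genes, so the 3 calls depend on leaving that term out. The edgeR log2 value of the median gene was 0.34 here, 0.18 in FR>OH vs FR and 0.13 in FR>FFPE vs FR>OH, which the TMM scaling set near 0. All genes split into 7549 higher and 1193 lower with the library total and 3633 higher and 3364 lower with TMM. With TMM, Eln was at 0.41, and the 3 passing members, Col3a1, Dcn and Tagln, were lower, where 52.3% of all genes passed. Without the FR>FFPE Con library of mouse 8D, left out after its values were seen, Eln was at 0.51 and 2 members passed. With the mouse as a block 5 members passed, with Col1a1 and Lrat added.

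In FR>OH vs FR, 2 of 10 members passed edgeR's test, beside 54.9% of all genes. Dcn fell by 1.07 on the log2 scale (SE 0.11, adjusted p = 2.75e-11, lower in 12 of 12 mice), and was the only member apart in both treatments, as 12.2% of all genes were. Tagln fell by 0.68 (SE 0.18, adjusted p = 0.0011, lower in 10 of 12 mice). Eln (0.54, SE 0.26) and Myh11 (0.39, SE 0.24) did not pass, with adjusted p of 0.0724 and 0.169. All genes split into 5569 higher and 1773 lower, and into 3365 and 3480 with TMM. With TMM 5 members were lower, with Acta2, Col3a1 and Lrat added, and with the mouse as a block 7 passed, Acta2, Col1a1, Col3a1, Eln and Lrat added. In FR>FFPE vs FR>OH, 2 members passed, beside 22.3% of all genes. Dcn rose (log2 0.56, SE 0.11, adjusted p = 0.000301) and Lrat rose (log2 0.59, SE 0.17, adjusted p = 0.0114). Both were higher in 11 of 12 mice. All genes split into 2734 higher and 251 lower, against 670 and 917 with TMM, where Lrat was at 0.46 and did not pass. With a lane term Tagln (−0.64) did not pass in FR>OH vs FR, nor did Lrat (0.69) in FR>FFPE vs FR>OH. In each 1 member passed, beside 11% and 2.94% of all genes. Eln and Myh11 were each higher in FR>FFPE than in FR>OH in 6 of 12 mice.

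Libraries of 1 group varied more in the members than in most genes. The SD of log2(CPM + 0.5) within a group had a median over the members of 0.35 in FR, 0.46 in FR>OH, 0.50 in FR>FFPE and 0.50 in FFPE. Over all genes kept, the medians were 0.20, 0.23, 0.23 and 0.27. Myh11 had an SD of 0.15 in FR and of 0.57 to 0.62 in the others. Some members had few reads, with 24 to 38 counts of Myh11 in FR and 20 to 95 in FFPE, and the part of counting error was not tested.

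Col3a1 rose with PB in 2 of 4 preparations, Col1a1 in 1 and Col1a2 in 1, and no collagen passed in the frozen or the frozen-then-formalin liver. The comparison asked how the members responded to the drug in each preparation, with different mice in the 2 groups, so a block by mouse could not be fitted. In FFPE, 2 of 10 members passed edgeR's test, beside 6.63% of all genes. Col1a1 ranged from 5.52 to 23.4 CPM (median 13.8) in Con mice and from 14.8 to 47.6 (median 34.5) in PB mice, and rose (log2 1.34, SE 0.33, adjusted p = 0.00663). Col3a1 ranged from 33.9 to 77.9 CPM (median 44.2) and from 44.1 to 112 (median 95.9), and rose (log2 0.87, SE 0.26, adjusted p = 0.0276). Both pairs of groups overlapped. In FR>OH, 3 passed, beside 12.2% of all genes. Acta2 rose (log2 1.66, SE 0.44, adjusted p = 0.00742), as did Col3a1 (0.83, SE 0.25, adjusted p = 0.0237) and Col1a2 (0.72, SE 0.24, adjusted p = 0.0395), while Col1a1 was at 0.91 with an adjusted p of 0.0500177. Without the PB library of mouse 20D, left out after its values were seen, 1 member passed, beside 11.6% of all genes. Acta2 (1.17) and Col1a2 (0.62) did not. The 20D library held 8.28 CPM of Acta2, where the next highest in its group had 3.44.

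In FR no member passed with edgeR, beside 8.45% of all genes, and 3 had an unadjusted p under 0.05. DESeq2 also called no member, beside 11.3% of all genes. Col3a1 came closest, at a log2 of 0.71 (SE 0.25, adjusted p = 0.0673), with 42.9 to 67.3 CPM in Con mice and 52 to 108 in PB mice. In FR>FFPE no member passed with edgeR or DESeq2, beside 7.23% and 6.99% of all genes, and 2 had an unadjusted p under 0.05 in each. Eln was at 1.01 (SE 0.35, adjusted p = 0.069). Without the Con library of mouse 8D, 4 members passed there, beside 7.2% of all genes. They were Eln (1.43), Col1a1 (1.19), Col3a1 (0.82) and Col1a2 (0.77). That Con library held 29.9 CPM of Col1a1 and 107 of Col3a1. The FFPE, FR>OH and FR libraries of mouse 8D held 23.4, 16.5 and 11.6 CPM of Col1a1. Eln, Acta2, Tagln and the 3 collagens had positive log2 values in all 4 preparations, which share the same mice and are not independent. Myh11, Des, Dcn and Lrat had values between −0.32 and 0.63 and none passed. The PB response did not pass as different from that in FR for any member in FFPE, FR>FFPE or FR>OH by edgeR's interaction test (0% of all genes each). The counts at an unadjusted p under 0.05 were 0 members each, and 463, 288 and 305 of all genes, and DESeq2 called 0 genes. With the mouse as a block 0 members passed, beside 0.00748%, 0% and 0.277% of all genes in FFPE, FR>FFPE and FR>OH.

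**Figure D3:**
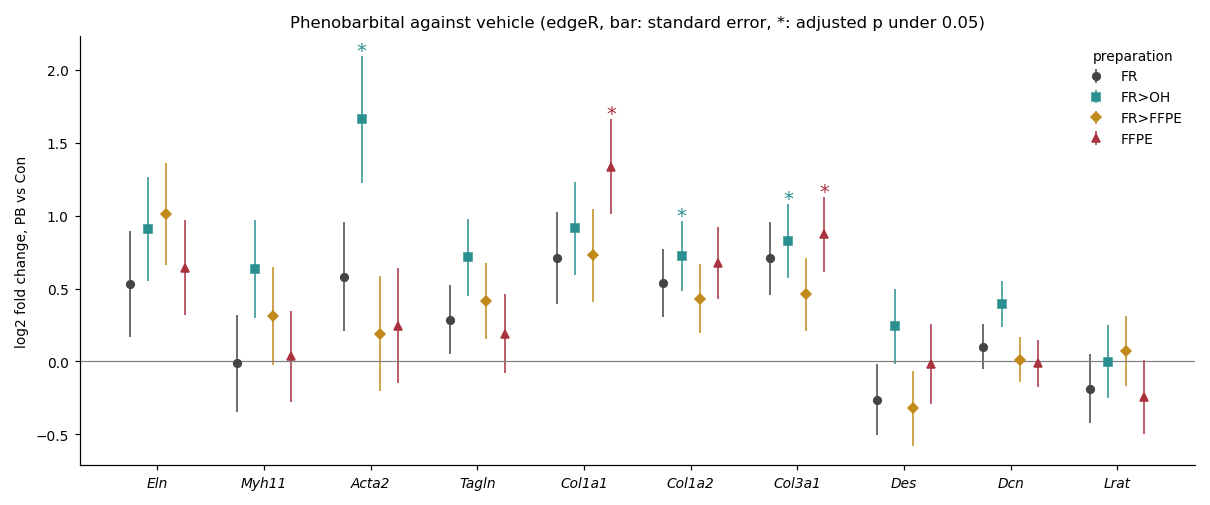
Log2 fold change of PB against Con by edgeR for each gene, with 1 symbol per preparation, bars of 1 standard error and a star at an adjusted p under 0.05. The 3 collagens and Eln lie above 0 in all 4 preparations, with Col1a1 in FFPE at 1.34, while Lrat and Des lie around 0.

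Markers of other cells of the liver were set beside the members. The 12 lists held 109 genes, of which 108 were in the table and 89 were tested. Between FFPE and FR>FFPE, 26 of the 89 passed edgeR's test, 14 higher and 12 lower in FFPE, beside 29.2% of all genes, so the share was that of the background. These libraries also chose the members, and the lists were set with earlier results known, so the calls are not independent of that choice. Of the smooth muscle and mural list, 4 of 12 passed. Synpo2, an actin-binding protein of muscle, rose from a mean of 0.600 to 1.59 CPM (log2 1.38, SE 0.33, adjusted p = 0.00101), and Tpm2, a tropomyosin of muscle, from 0.711 to 1.51 (1.12, SE 0.33, adjusted p = 0.00833). Mylk, the myosin light chain kinase, rose by less (0.21) and Cald1, caldesmon, fell (−0.22). The summed level of that list overlapped, at 651 to 840 CPM in FR>FFPE and 661 to 763 in FFPE, and was 485 to 555 in FR. Cald1 alone averaged 337 CPM in FR>FFPE, 288 in FFPE and 243 in FR, so Synpo2 and Tpm2 hardly weigh in the sum. Of 8 tested elastic fibre genes 1 passed, Mfap4, a protein of elastic microfibrils, which rose from 0.440 to 0.913 CPM (log2 1.17, adjusted p = 0.0382). At means of 0.440 to 1.59 CPM, Synpo2, Tpm2 and Mfap4 rested on few reads.

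Of 15 other collagen and fibroblast genes, Col5a2 rose (0.45) and Col14a1 (−0.41) and Postn (−0.46) fell, with sums of 210 to 432 CPM in FR>FFPE and 267 to 416 in FFPE. Of 13 other stellate cell genes none rose, and Angptl6 (−0.49), Ecm1 (−0.36) and Hgf (−0.33) fell. Their sum was 223 to 459 CPM in FR>FFPE and 232 to 343 in FFPE. Among bile duct genes, the duct keratins Krt7 (1.06, adjusted p = 0.0534) and Krt19 (1.03, adjusted p = 0.0698) did not pass. The bile duct sum was 46.7 to 117 CPM in FR>FFPE and 54.6 to 98.7 in FFPE. The endothelial genes that passed were higher, 3 of 8 for vessels (Pecam1, Eng and Plvap, 0.17 to 0.33) and 5 of 10 for sinusoids (Gpr182 0.56, Dnase1l3 0.39, Fcgr2b 0.32, Flt4 0.29 and Stab2 0.18), with none lower. The vessel sum was 104 to 219 CPM in FR>FFPE and 172 to 216 in FFPE, and the sinusoid sum 336 to 619 and 524 to 641.

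All 3 hepatocyte genes and 2 of 5 red blood cell genes were lower in fresh-fixed liver. Of the red blood cell genes the globins Hba-a2 (−0.89) and Hbb-bs (−0.87), which share reads with near-identical copies, fell, and the summed levels overlapped, at 195 to 788 CPM in FR>FFPE and 190 to 403 in FFPE. The 3 hepatocyte genes Alb (−0.63), Apoa1 (−0.48) and Ttr (−0.47) fell, and Clec4f (−0.43) was the 1 of 6 Kupffer cell genes that passed. No mesothelial gene (0 of 2) or nerve gene (0 of 1) passed. With a lane term 0 listed genes passed, beside 2.38% of all genes. With all reads as the library size, 64 passed, 1 higher and 63 lower, beside 82.6% of all genes, most of them lower (82.4%). The calls thus depend on the lane term and the scaling. With the mouse as a block 44 passed, 21 higher and 23 lower, beside 43.6% of all genes. The part of these cell types in the difference of Eln and Myh11 was not tested.

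**Figure D4:**
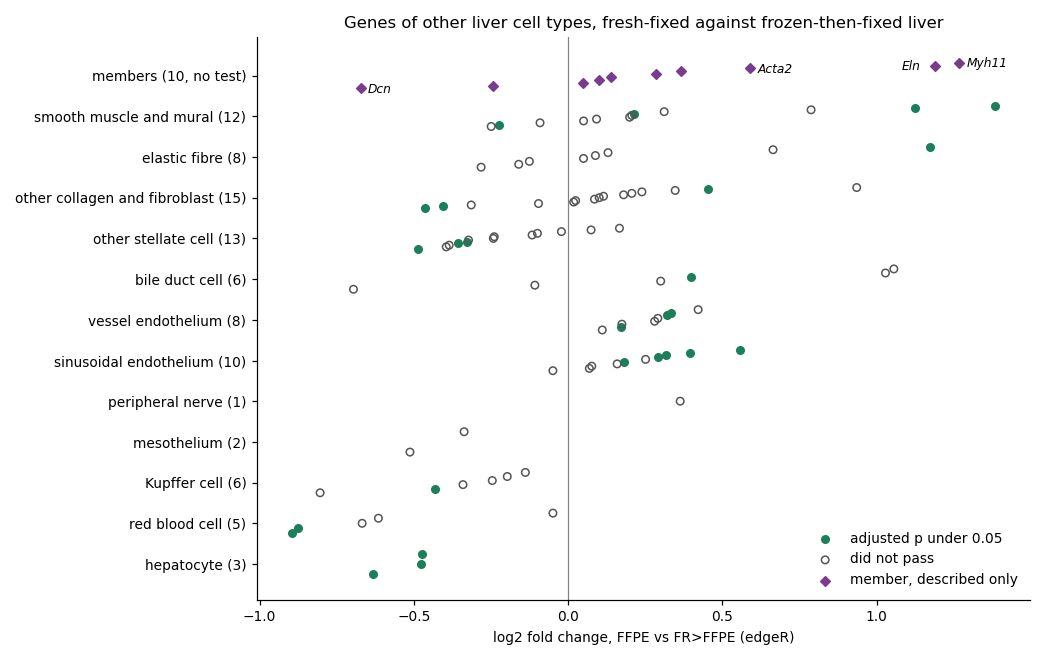
Log2 fold change of FFPE vs FR>FFPE by edgeR for 89 genes in 12 lists and the 10 members (diamonds, described only), with filled circles at an adjusted p under 0.05. Synpo2, Tpm2 and Mfap4 are the filled circles above 1, beside Eln and Myh11, while the stellate cell list lies mostly below 0.

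Over the 48 libraries, the genes most like Myh11 in log2 CPM were Sfrp1 (r = 0.79), Syt7 (0.78), Eln (0.77), Sema3f (0.77) and Ttc28 (0.76). Those most like Eln were Vegfd (0.78), Spns2 (0.78), Myh11 (0.77), Sfrp1 (0.77) and Nr6a1 (0.76). Sfrp1 had 0.572 CPM in FR, 0.886 in FR>OH, 0.582 in FR>FFPE and 3.10 in FFPE. Among all genes, Acta2 ranked 69 and Tagln 6075 in likeness to Myh11, and Col1a1 ranked 85 in likeness to Eln. These correlations cover 48 libraries of 12 mice that share depth and preparation, so they are descriptions.

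A further comparison asked whether a mouse with much of a gene in 1 preparation also had much in another. Over 10 genes and 6 pairs of preparations, 60 relations across 12 mice were computed with permutation tests and adjusted over the 60. Myh11 gave r = −0.37, −0.34 and −0.14 among the 3 portions of the frozen piece and r = 0.50 between FR>FFPE and FFPE (permutation p = 0.116, adjusted p = 0.387). Eln gave r = 0.53, 0.22 and 0.09 among the frozen portions and 0.33 between FR>FFPE and FFPE, and none passed. In FR, Myh11 had 24 to 38 counts and an SD of log2(CPM + 0.5) of 0.15, and Eln had 3 to 24 counts. Their r with FR therefore cannot tell a lack of agreement from counting error. Lrat had r from 0.63 to 0.82 in all 6 pairs. By Pearson's r it passed between FR and FFPE (r = 0.82, rho = 0.83, permutation p = 0.00074, adjusted p = 0.0339, r = 0.67 without the 2 mice farthest from the median) and between FR>OH and FFPE (r = 0.80, rho = 0.78, permutation p = 0.00113, adjusted p = 0.0339, r = 0.70 without them). By Spearman's rho the second did not pass (adjusted p = 0.0716), while Lrat between FR and FFPE, Lrat between FR>FFPE and FFPE, and Col1a1 between FR and FFPE (rho = 0.83, r = 0.74) did, each at an adjusted permutation p of 0.0294. With TMM-scaled values none of the 60 passed. The median r was 0.15 over the 30 relations among frozen portions and 0.30 over the 30 with FFPE.

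Base composition was set beside the preparation differences of the members. Across the 10 members, the log2 difference correlated with the share of G and C at r = 0.62 in FFPE vs FR>FFPE, 0.32 in FFPE vs FR>OH, 0.62 in FFPE vs FR, 0.48 in FR>FFPE vs FR, 0.76 in FR>OH vs FR and −0.85 in FR>FFPE vs FR>OH. Across 12568 genes with a transcript (94% of those tested) the values were 0.44, 0.10, 0.34, 0.20, 0.42 and −0.47 in the same order. Genes are not independent replicates, and the values carry no test. The windows of Eln and Dcn printed above stand at the ends of this range. After a linear trend in G and C and log2 length over all genes was taken off, Eln was 0.95 and Myh11 1.07 above it in FFPE vs FR>FFPE, where the trend itself was 0.24 and 0.19. Acta2 was 0.69 and Tagln 0.36 above it. Des and the 3 collagens lay between −0.17 and 0.05 from it, Lrat at −0.12 and Dcn at −0.37. Eln and Myh11 were chosen on this contrast, so their distance from the trend is a description, as is the r that includes them. In FFPE vs FR the trend was 0.85 for Eln, which stood at 1.91, and 0.86 for Myh11, which stood at 1.70. In FR>FFPE vs FR the trend for Eln was 0.61 of its 0.72, and 0.11 was left. That trend also holds the shift of all genes, whose median log2 value there was 0.34, so 0.61 is not the part of base composition and length alone. Dcn was −0.83 from the trend in FR>OH vs FR and 0.33 from it in FR>FFPE vs FR>OH.

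**Figure D5:**
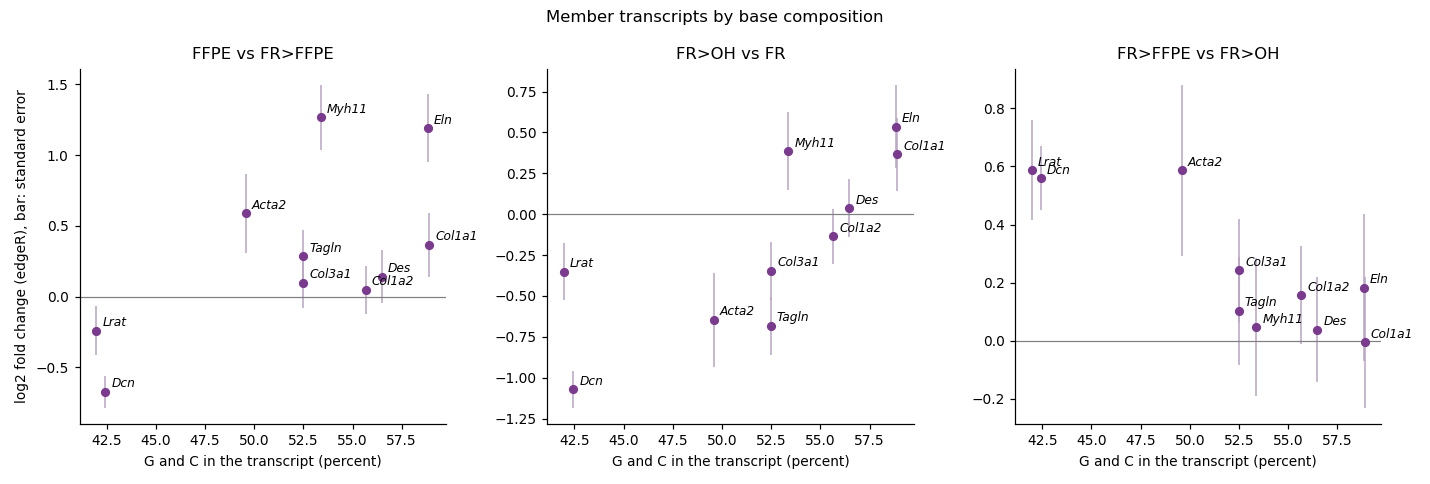
Log2 fold change by edgeR (bars, 1 standard error) of the 10 genes against the percent of G and C in the transcript in FFPE vs FR>FFPE, FR>OH vs FR and FR>FFPE vs FR>OH. Dcn and Lrat, at 42.4% and 42.0%, are lowest in the first panel and highest with Acta2 in the third.

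Rat organs gave values for 6 members that the choice of genes had not used. A targeted probe panel (TempO-Seq) measured vehicle-treated male F344 rat liver and WKY rat lung with 6 libraries per preparation. Rat numbers differed between preparations, so no pairing was possible. Eln, Des and Lrat were listed at 0 in every rat library and Col1a2 was not analysed here. In rat liver, an FR library held 0 to 1 counts of Myh11, an FR>FFPE library 0 to 13 and an FFPE library 2 to 11, which was 0 to 4.39 CPM in FR>FFPE (median 2.03) and 7.78 to 50.2 CPM in FFPE (median 14). FFPE lay wholly above FR>FFPE. FFPE libraries were shallow, with 139477 to 889125 counts against 2156621 to 3898086 in FR>FFPE.

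In rat liver FFPE vs FR>FFPE, 6 of 6 members passed edgeR's test, beside 53.8% of all genes. Myh11 (log2 2.21, SE 0.57, adjusted p = 0.00206), Col1a1 (2.13, SE 0.51, adjusted p = 0.00104) and Acta2 (1.48, SE 0.45, adjusted p = 0.00771) rose. These rises rested on few reads. Col1a1 counts ran from 1 up to 18 after fresh fixation and from 3 up to 20 after freezing first. Acta2 counts ran from 3 up to 24 and from 6 up to 45. Frozen libraries held at most 4 counts of Col1a1. The highest FFPE levels of Myh11, Acta2 and Col1a1 were all in rat 82, whose library was the shallowest, at 139477 counts. The part of library depth in these rises was not tested. Col3a1 fell by 1.65 (SE 0.23, adjusted p = 1.75e-06), Dcn by 1.25 (SE 0.23, adjusted p = 8.2e-05) and Tagln by 1.02 (SE 0.39, adjusted p = 0.0284). All genes split into 681 higher and 547 lower, and into 1437 and 115 with the library total in place of TMM, where Dcn (−0.40) and Tagln (−0.25) did not pass. In FFPE vs FR, 4 of 6 passed, beside 79.7% of all genes, Myh11, Col1a1 (3.58) and Acta2 (1.87) higher and Dcn (−0.84) lower. All genes split into 1054 and 765, or 1765 and 159 without TMM, where Dcn turned to 0.77 and Tagln from −0.76 to 0.86. In FR>FFPE vs FR, 3 of 6 passed, beside 71.3% of all genes, Myh11, Col3a1 (2.08) and Col1a1 (1.45), all higher. All genes split into 999 and 628, or 1465 and 269 without TMM.

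In rat lung FFPE vs FR>FFPE, 2 of 6 members passed, beside 21.4% of all genes. Col1a1 ranged from 4.96 to 23.7 CPM in FR>FFPE and from 15.2 to 131 in FFPE and rose (log2 2.06, SE 0.46, adjusted p = 0.00631). Acta2 ranged from 45.6 to 240 CPM and from 170 to 811 and rose (log2 1.53, SE 0.44, adjusted p = 0.0216). Myh11, at 22.9 to 75.3 CPM and 31.7 to 102, was at 0.33 (SE 0.30, adjusted p = 0.449) and did not pass. Lung FFPE tissue lay in formalin for 1 year and FR>FFPE tissue for 18 to 24 h, so fixation time and freezing cannot be told apart there.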

How the data were processed

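Total RNA of 48 mouse liver libraries was depleted of ribosomal RNA and sequenced. The authors aligned reads with STAR and deposited expected counts per RefSeq gene, estimated in Partek by expectation maximization, of which 92.2% were whole. The submitters' processing notes name STAR 2.5.3a, CASAVA 1.8.2, Partek and the builds GRCm38, mm10 and rn6. Deposited counts of the rat TempO-Seq panel were used as raw counts. The authors' log2 CPM values of mouse liver were used only to derive the total reads of each library. The cell line data were not used. The members and lists were chosen with earlier results of these data known.

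Groups were taken from the labels. Expected counts were rounded, genes with a geometric mean above 1 count (offset 0.0001) were kept, and the 8 groups were fitted in edgeR 4.0.16 (R 4.3.3) with the library total as size and the quasi-likelihood test. Benjamini-Hochberg adjustment ran over all genes kept, with a threshold of 0.05. Rat organs were fitted separately with TMM and edgeR's own filter. Frozen rat lung was not tested. Alternatives were TMM, DESeq2 1.42.0, total reads, totals without genes over 1% of a library, other filters, a lane term, a 2-fold criterion, the mouse as a block, and leaving out libraries. Genes of the lists were named as the up to 3 largest changes that passed. Flt4, Krt7, Krt19, Mylk and Stab2 were named after their values were seen. The result of 1 listed gene is not reported here. Permutation tests were two-sided with 100000 resamples in scipy 1.17.1. Fits were tested on simulated data.

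Same-numbered libraries come from 1 mouse. Over 7693 genes, residuals of the same mouse correlated at a median of 0.709 (72 of 72 pairs over 0.1) and those of different mice at −0.127. No libraries agreed within sampling noise. Mouse depth ran from 4952797 to 13702672 counts, so 1 CPM is few counts in the smallest library, and ratios of Eln and Myh11 rest on few reads.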

Additional observations from a re-analysis of the deposited data

Results flagged for a closer look

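In 8 of 80 groups of 6 libraries, 1 library lay far from the others, by Dixon's test. Chance gives about 1 in 20 groups where values are normal and groups independent. CPM was used without a log and the groups share libraries, so the number of flags is no test of an excess. The FR>FFPE Con library of mouse 8D stood apart in 3 genes, with Eln at 2.90 CPM (next 1.26), Col1a1 at 29.9 (next 10.5) and Col1a2 at 36.7 (next 18.2). The FFPE Con library of the same mouse stood apart in Col3a1, at 77.9 CPM (next 48.4). The FR>OH PB library of mouse 20D stood apart in Myh11, at 8.60 CPM (next 4.00), and in Acta2, at 8.28 (next 3.44). In Con mice, the FR library of mouse 8A stood apart in Col1a1, at 19.9 CPM (next 11.6), and the FR>OH library of mouse 8C in Des, at 3.73 (next 2.51). All 8 were the highest of their group. The FR>FFPE library of mouse 8D was the deepest of its preparation, at 10681783 counts.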

How the results depend on the processing

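In FR>FFPE vs FR, 3 members passed, against 0 with a lane term, 5 with the mouse as a block and 0 at 2-fold. Of all genes 38.4%, 73.8% and 6.52% passed in these settings. In FR>OH vs FR, 2 passed, against 5 with DESeq2 (52.2% of all genes), 1 with the lane term (11%) and 7 with the block (65.1%). Further, 5 passed with TMM (51.2%), 6 with total reads (53.1%) and 1 at 2-fold (4.08%). When a library was left out 2 to 4 passed, 4 without FR>OH PB 20D (53.1%). In FR>FFPE vs FR>OH, 2 passed, against 1 with the lane term (2.94% of all genes), 1 with TMM (11.9%) and 0 at 2-fold (0.127%). For PB vs Con, 2 passed in FFPE (1 at 2-fold), 0 in FR (0 to 1 with a library left out), 0 in FR>FFPE (0 to 4) and 3 in FR>OH (1 to 4, 6 with total reads, 1 at 2-fold). In FR>OH, 14.6% of all genes passed with total reads and 2.42% at 2-fold, and in FFPE 1.92% at 2-fold. Leaving out mouse 8D or 20D was chosen after seeing the data. Of listed genes 26 passed, against 0 with the lane term, 44 with the block, 64 with total reads and 3 at 2-fold. Of all genes 2.38%, 43.6%, 82.6% and 0.531% passed in these settings. Of the relations between preparations 2 passed, and 0 with TMM. In rat liver FR>FFPE vs FR, 3 passed, and 5 without TMM, beside 76% of all genes. Directions that turned included those of Acta2 in FR>FFPE vs FR with the lane term (0.55), of Lrat in FFPE vs FR>OH with the lane term (−0.34) and total reads (−0.28), of Col1a1 in FFPE vs FR with total reads (−0.22), and in rat liver FFPE vs FR without TMM of Dcn (0.77) and Tagln (0.86). In FFPE vs FR>FFPE they turned for 5 members with total reads and for Acta2, Tagln, Des, Col3a1 and Col1a2 with the lane term. The cause was not tested, and lanes as read from the L number are nearly aliased with preparations. The block could not be fitted to PB vs Con within a preparation, since each mouse had 1 treatment. Apart from the 3 counts given with it, it moved no count of passing genes by over 1.5 times. Of 135 recomputed counts of genes, 110 stayed within 1.5 times of the reported one. Of 758 values of single genes, 677 were labelled the same. Where mouse FFPE was compared with another preparation, that label meant a shift smaller than the SD over mice, and the direction could still turn. Elsewhere it meant the same direction and the same side of the threshold.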

Other observations

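Frozen rat lung was not tested, since 1 of its 6 libraries held 12 counts in all. Its libraries held up to 11.9 CPM of Myh11 (median 8.95), 186 of Acta2 (median 139) and 2343 of Tagln (median 2221), which code for contractile proteins. Lung FR>FFPE had medians of 38.1, 149 and 2544 CPM for the same genes. Col3a1 had a median of 1190 CPM in frozen lung and 4985 in lung FR>FFPE, and Col1a1 1.39 and 8.87. The frozen lung medians include the library with 12 counts, which held 0 of each of these genes.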
